A study of Mus musculus with 17 samples.

Results

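Chmp4b, Agk, Gcnt2, Sipa1l3, Unc45b, Wfs1, Lemd2, Tmem114 and Trpm3 are genes in which mutations have been linked to cataract and which belong to none of the large lens families, that is the crystallins, the lens membrane channels and the beaded filament proteins. They were taken by name and make up 9 of the 21938 protein-coding genes of the GENCODE annotation (release M21) on mm10, the mouse assembly GRCm38. For each gene, H3.3 islands were taken in a window that holds the gene body and 5 kb on each side. An island is a stretch of 200 bp steps, joined over gaps of up to 600 bp, that held more ChIP reads than the background at a false discovery rate of 0.01.

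The histone H3 variant H3.3 is placed into chromatin outside of DNA replication, and it is known to be enriched over transcribed gene bodies, active promoters and enhancers. The lens is an anterior epithelium, which keeps dividing, and a mass of fiber cells that leave the cell cycle, elongate, fill with crystallins and finally lose their nuclei and organelles. The 9 genes act in very different places of such a cell: membrane scission (Chmp4b), the nuclear envelope (Lemd2), the endoplasmic reticulum (Wfs1), mitochondria (Agk), cell polarity and Rap signalling (Sipa1l3), myosin folding (Unc45b), sugar chains of glycoproteins (Gcnt2) and the cell membrane (Tmem114, Trpm3).

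Chromatin came from microdissected lenses of newborn CD-1 mice, without a transgene or treatment, and an antibody against H3.3 was used on epithelium (n = 2 biological replicates) and on fibers (n = 2 biological replicates). The lenses of several animals were pooled in each sample. The sample titles give day 1 after birth and the labels 150 lenses per sample, whereas the methods give 200 lenses at day 0.5. The deposited values are counts of reads in each called island, without normalization, and places below the calling threshold have no value.

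From 10389 to 14434 islands were listed per epithelium library and from 27059 to 35940 per fiber library. The islands covered 45.4 Mb and 48.9 Mb of the genome in epithelium, and 178 Mb and 188 Mb in fibers, a ratio of the means of 3.88. Reads in islands ranged from 1331369 to 5359085 per library, but the number of sequenced reads is unknown, so that no counting interval or detection limit was given. Median island density was nearly the same in all 4 libraries, between 27.4 and 28.3 reads per kb. As a check of the labels, all 9 fiber markers (such as Lim2 and Bfsp1) were covered more in both fiber libraries than in both epithelium libraries, an order that 45.0% of all protein-coding genes showed. The same held for 6 of 7 epithelium markers, with Gja1 as the exception, and for 3 of 7 markers of retina, vessels and blood, while Crx, Hbb-bs and Ptprc had no island in any library. The median covered share of the 7 epithelium markers was 5.12% and 12.5% in epithelium, and 67.2% and 75.8% in fibers. The markers of other tissues thus showed this order about as often as all genes, and the epithelium markers did not set the epithelium libraries apart, and their part in the results was not tested. In such bulk chromatin, more cells carrying H3.3 at a gene and more H3.3 per cell cannot be told apart. Reads in islands were 1331369 and 1430373 in epithelium, and 5041885 and 5359085 in fibers. Whether sequencing depth or enrichment had a part in the differences between compartments was not tested.

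The exact permutation test, two-sided, has only 6 labellings for groups of 2, and its smallest p is 0.33. The comparisons therefore rest on the values of each library and on whether the compartments overlap.

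Islands were found in the windows of 8 of the 9 genes in both fiber libraries, against 52.3% of all protein-coding genes. Both epithelium libraries had an island at 4 of the 9 genes, Chmp4b, Sipa1l3, Lemd2 and Trpm3, against 24.7% of all genes. Gcnt2 alone had no island in any library, as was the case for 35.5% of all genes. The covered share of the window was higher in both fiber libraries than in both epithelium libraries for 8 of the 9 genes, against 45.0% of all genes and 52.1% of genes of 10 kb or more. None of the 9 genes had the opposite order, which 0.670% of all genes showed. The median difference between the fiber mean and the epithelium mean was 23.7 percentage points over the 9 genes, 4.72 points over all genes and 6.40 points over genes of 10 kb or more.

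**Figure D1:**
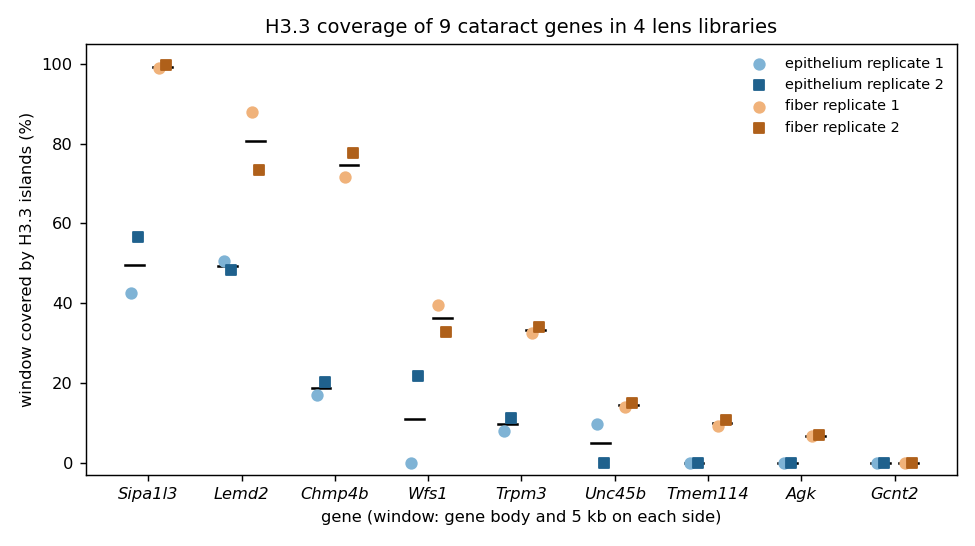
Share of each gene's window (gene body and 5 kb on each side, in %) that lay under H3.3 islands, with 1 point per library and a horizontal bar at the mean of the 2 libraries of a compartment. Both fiber points lie above both epithelium points for 8 genes, from Sipa1l3, with 99.0% and 99.6% in fibers, to Agk, with 6.62% and 6.86%, and Gcnt2 lies at 0 throughout.

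These counts carry the wider coverage of the fiber libraries. The covered length was then divided by the length of all islands of the library, an alternative chosen after seeing the data. Only Agk and Tmem114 were then higher in both fiber libraries, 2 of the 9 genes, against 21.6% of all genes. Neither gene had an island in epithelium, so that this scaling could not change their order. On that scale Sipa1l3 took 1950 and 2416 bp per Mb of islands in epithelium, and 1160 and 1105 bp per Mb in fibers, so that its order was reversed. The order was also reversed for Lemd2, with 278 and 246 bp per Mb in epithelium, and 123 and 97.3 bp per Mb in fibers. For both genes, even a fully covered window would have stayed below the epithelium values in fibers. These reversals were thus fixed by the length of all fiber islands, and they say nothing about either gene. Chmp4b took nearly the same part of the islands everywhere, 198 and 221 bp per Mb in epithelium, and 214 and 219 bp per Mb in fibers. The genes were also ranked by covered share among all genes within each library, again chosen after seeing the data. By rank, 4 genes were higher in both fiber libraries (Chmp4b, Agk, Sipa1l3 and Tmem114), against 22.0% of all genes. For Agk and Tmem114 this order was again fixed by the lack of islands in epithelium.

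Sipa1l3 encodes a GTPase-activating protein for Rap that takes part in epithelial polarity, and it was the most fully covered gene of the group. The gene lies on the minus strand at chr7:29320372-29518641 and is 198 kb long. Epithelium replicates 1 and 2 covered 42.5% and 56.7% of its window, whereas fiber replicates 1 and 2 covered 99.0% and 99.6%. The fiber mean was 99.3% ± 0.41 and the epithelium mean 49.6% ± 10.05 (SD, n = 2 each), a difference of 49.8 points, and the compartments did not overlap (exact permutation test, two-sided, p = 0.33).

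In epithelium the coverage of Sipa1l3 was made of 15 and 28 separate islands, of which the longest measured 11 kb and 10 kb. In fibers 3 and 2 islands sufficed. The main fiber island was 176400 bp long with 7065 reads in replicate 1, and 201800 bp long with 8123 reads in replicate 2, and it was the longest of all islands in each fiber list. It also ran past the 3′ end of the gene body at 29320372, to position 29299801 in replicate 1 and 29313601 in replicate 2. Part of its length and reads thus lay outside the gene and its window. Past the 3′ end of the gene body the main fiber island overlapped Dpf1, a neighbour on the other strand, and Gm44632. The latter lies on the same strand as Sipa1l3 and is annotated as antisense. Inside the window, 2872 bp of Dpf1 and 2633 bp of Gm44632 were covered in both fiber libraries. The fiber islands at the 5′ end overlapped 4932431P20Rik. The islands of Sipa1l3 held 30.0 and 28.8 reads per kb in epithelium, against 39.5 and 40.0 reads per kb in fibers. The fibers were 1.35 times as dense (p = 0.33 by the exact permutation test). In fibers the main island was denser than 98.3% of islands of replicate 1 and 97.6% of islands of replicate 2. When the same number of islands was taken from each library by density, fiber coverage remained at 99.0% and 99.6%, against 42.5% and 43.8% in epithelium.

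**Figure D2:**
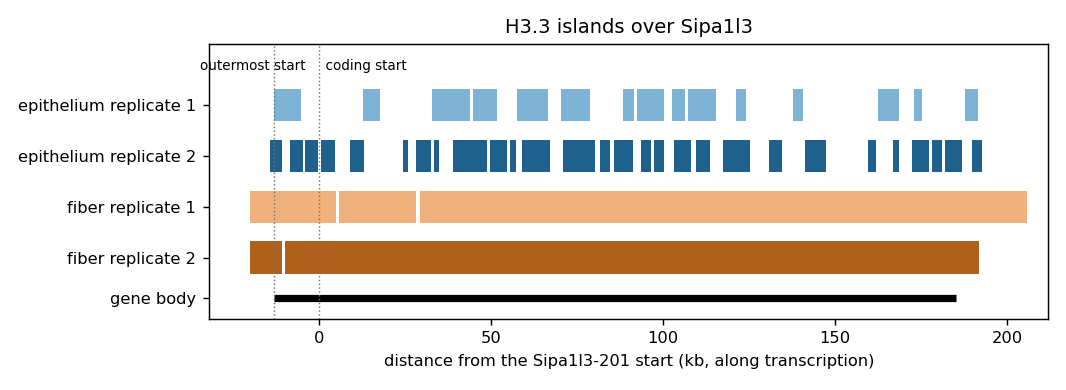
Islands over Sipa1l3 in the 4 libraries, as bars along the distance in kb from the start of the coding transcript Sipa1l3-201, in the direction of transcription, with the gene body in black. The 15 and 28 short islands of epithelium face 3 and 2 islands in fibers, which cover the gene nearly without a break.

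The sequence at the RefSeq start of Sipa1l3 is shown because it lay inside a fiber island in both replicates but outside every epithelium island. The nearest epithelium islands ended 5341 bp and 341 bp away from the start of Sipa1l3-201. Epithelium islands did reach other starts, at the 5′ end of the gene. Starts of processed transcripts at 29518560 and 29518555 lay in an island of all 4 libraries. The coding start at 29518612 lay in an island of epithelium replicate 2 and missed one of epithelium replicate 1 by 12 bp. The sequence runs from 250 bases before to 50 bases after the RefSeq start site (GRCm38, chr7:29505411-29505710, minus strand), with each CpG in capitals. It holds 8 CpGs, near the median of 7 of all 32851 mouse RefSeq promoters.
Sipa1l3: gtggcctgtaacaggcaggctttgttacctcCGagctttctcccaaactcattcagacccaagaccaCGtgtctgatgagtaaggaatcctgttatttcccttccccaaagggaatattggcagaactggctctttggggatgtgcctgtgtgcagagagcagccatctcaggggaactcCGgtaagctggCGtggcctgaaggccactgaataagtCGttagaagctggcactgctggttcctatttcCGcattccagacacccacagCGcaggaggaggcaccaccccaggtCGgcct

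Chmp4b encodes a subunit of ESCRT-III, the filament that pinches off membranes from inside a bud or neck. With all islands it showed the largest difference of the 9 genes. The gene lies at chr2:154651705-154694785 on the plus strand and is 43.1 kb long. Islands covered 17.0% and 20.3% of its window in epithelium, and 71.8% and 77.6% in fibers. The means were 18.7% ± 2.4 and 74.7% ± 4.1 (SD, n = 2 each), a difference of 56.0 points, larger than that of 95.7% of all genes, and the compartments did not overlap. With only islands at or above the median density of their library the difference was 61.6 points, below the 67.2 points of Sipa1l3, and Sipa1l3 also came first with an equal number of islands from each library.

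In both replicates, the fiber islands of Chmp4b covered all places of its epithelium islands, and further places as well. No island of epithelium lay in the first 50% of the gene body, and its 2 and 4 islands, of at most 5.2 kb, were in the 3′ part. Fibers had an island of 25.6 kb in replicate 1 and of 34.4 kb in replicate 2 in the body. The start of the coding transcript, at position 154657018, lay in another island, of 6.8 kb in replicate 1 and of 2.2 kb in replicate 2. The window coverage of fibers also held islands outside the body. An upstream island of replicate 1 overlapped Zfp341, by 117 bp within the window. A downstream island of replicate 2 ran past the window and overlapped Rpl5-ps2 only there. Epithelium islands held 26.7 and 25.5 reads per kb and fiber islands 31.1 and 29.1 reads per kb, with a ratio of 1.15. Density was higher in both fiber libraries for 2 of the 4 genes with islands in all libraries, Chmp4b and Sipa1l3, against 30.8% of the 5246 such genes. The longest island was longer in both fiber libraries for 3 of the 4, Chmp4b, Sipa1l3 and Trpm3, against 76.3%.

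Trpm3 encodes a calcium-permeable cation channel of the cell membrane and hosts Mir204, the gene of a microRNA of the eye. At 856 kb (chr19:22139046-22995410, plus strand) it was by far the longest of the 9 genes. Its window was covered to 8.08% and 11.2% in epithelium, and to 32.6% and 33.98% in fibers, a difference of 23.7 points without overlap. Genes within 0.5 to 2 times its length had a median fiber coverage of 0.666% (298 genes, Trpm3 among them). Read density did not set the compartments apart, with 29.4 and 27.7 reads per kb in epithelium, and 28.6 and 30.0 reads per kb in fibers.

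Coverage of Trpm3 began near an internal start of transcription. The annotation places transcripts at 3 main starts, near positions 22139046, 22448208 and 22692786, and the first 2 lay in no island of any library, with the nearest island at least 143983 bp away. The internal start, at 22692786, lay in an island of all 4 libraries, and splitting the gene there was chosen after its values were seen. These islands measured 6.4 kb and 5 kb in epithelium, and 28.6 kb and 36.4 kb in fibers. They began 1985 bp and 185 bp before the internal start in epithelium, and 4785 bp and 3785 bp before it in fibers. Of the 554 kb of the gene before the internal start, 0.358% and 0.0334% were covered in epithelium, and 4.58% and 6.61% in fibers. Of the 303 kb from there on, islands covered 22.5% and 31.6% in epithelium, and 83.8% and 83.9% in fibers. Fibers alone had islands that lay wholly before the internal start, 4 in replicate 1 and 7 in replicate 2. The 3′ end of the gene is overlapped by the antisense gene C330002G04Rik, and islands carry no strand.

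**Figure D3:**
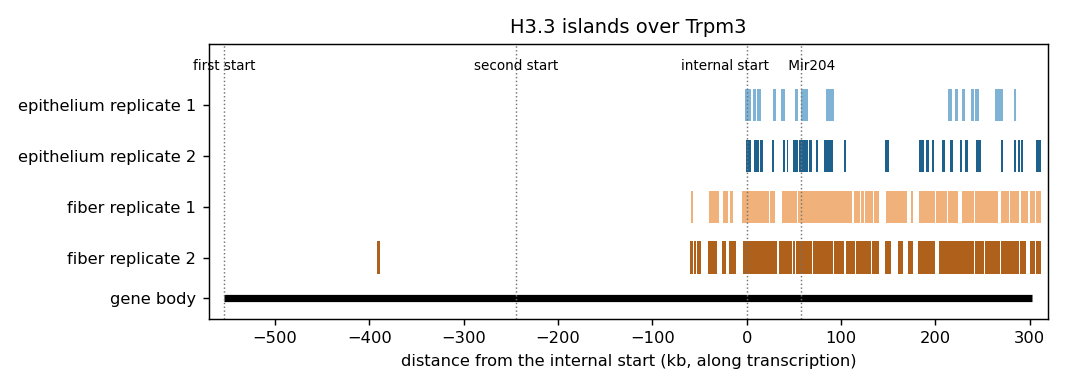
Islands over Trpm3 in the 4 libraries, along the distance in kb from the internal start, in the direction of transcription. Dotted lines mark the 3 starts and Mir204, and the gene body is in black. The part after the internal start, 303 kb, is covered to 83.8% and 83.9% in fibers, and the 554 kb before it to 4.58% and 6.61%.

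The sequences of the 3 starts of Trpm3 are shown because the islands distinguished the internal start from the others. Each covers 250 bases before to 50 bases after the start (GRCm38, plus strand), with CpGs in capitals. The first lies at chr19:22138796-22139095 and has 21 CpGs, the second at chr19:22447958-22448257 with 10 CpGs, and the internal start at chr19:22692536-22692835 has only 4 CpGs. The first pair is from RefSeq, and the last was read from the assembly.
Trpm3 first start: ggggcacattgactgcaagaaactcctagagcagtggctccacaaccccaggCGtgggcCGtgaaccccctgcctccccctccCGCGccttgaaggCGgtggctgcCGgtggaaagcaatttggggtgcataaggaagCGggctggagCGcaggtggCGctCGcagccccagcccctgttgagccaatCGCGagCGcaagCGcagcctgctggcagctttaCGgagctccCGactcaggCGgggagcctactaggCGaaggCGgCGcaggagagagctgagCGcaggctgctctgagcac
Trpm3 second start: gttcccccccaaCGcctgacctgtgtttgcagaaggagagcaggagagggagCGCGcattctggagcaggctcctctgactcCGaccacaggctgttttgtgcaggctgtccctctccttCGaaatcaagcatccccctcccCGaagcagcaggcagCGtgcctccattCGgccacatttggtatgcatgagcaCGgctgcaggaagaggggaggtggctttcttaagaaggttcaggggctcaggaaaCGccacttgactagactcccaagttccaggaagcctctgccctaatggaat
Trpm3 internal start: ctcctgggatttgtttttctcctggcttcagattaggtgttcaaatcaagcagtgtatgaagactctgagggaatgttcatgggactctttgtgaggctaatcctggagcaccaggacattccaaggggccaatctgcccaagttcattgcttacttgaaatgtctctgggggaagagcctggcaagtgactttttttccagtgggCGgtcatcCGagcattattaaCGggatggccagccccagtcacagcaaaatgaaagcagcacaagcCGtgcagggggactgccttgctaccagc

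Mir204, at chr19:22750605-22750672, lay in an island of every library. That island was 8400 bp and 9000 bp long in epithelium, and 15800 bp and 17200 bp long in fibers, with 243, 251, 500 and 594 reads in the same order. The mature microRNAs are given from RefSeq, with the seed, bases 2 to 8, in capitals, to show which product lies under these islands.
mmu-miR-204-5p: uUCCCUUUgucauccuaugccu
mmu-miR-204-3p: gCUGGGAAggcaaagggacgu

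Lemd2, a protein of the inner nuclear membrane with a LEM domain, is the shortest of the 9 genes with 14.9 kb (chr17:27189600-27204469, minus strand). Epithelium covered 50.7% and 48.3% of its window, and fibers 87.9% and 73.5%, a difference of 31.2 points without overlap. In all 4 libraries the 3′ part of the gene was covered, while the start at position 27204469 lay in none of the islands. It missed the nearest fiber island by 132 bp in both replicates, and the nearest epithelium island by 5069 bp and 5732 bp. Another coding start, at 27203676, lay in an island of fiber replicate 1 and missed one of fiber replicate 2 by 925 bp. No epithelium island reached it. In fibers the 5 kb before the start at 27204469 were covered to 77.4% and 97.4%, and in epithelium they held no island. The density of 31.1 and 32.3 reads per kb in epithelium overlapped that of 32.3 and 33.6 reads per kb in fibers. With an equal number of islands from each library by read count, the coverage of 50.7% and 48.3% in epithelium overlapped that of 72.4% and 37.8% in fibers. The antisense gene Gm26724 overlaps the gene, and the island of fiber replicate 1 covered both.

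Wfs1 encodes wolframin, a membrane protein of the endoplasmic reticulum that takes part in calcium balance and the stress response. The gene lies at chr5:36966104-36989205 on the minus strand. No island was called in epithelium replicate 1, and a single island of 7.2 kb covered 21.8% of the window in replicate 2. Fibers covered 39.6% and 32.9% in 4 and 3 islands. The difference of 25.4 points was larger than the spread, which in epithelium was wide (SD 15.4, n = 2). Without the flanks the fiber and epithelium values overlapped. Both fiber libraries had an island over the start of Wfs1, of 4.6 kb and 4.4 kb, whereas the island of epithelium replicate 2 ended 5805 bp from it. With an equal number of islands from each library, Wfs1 was covered by density only in fiber replicate 1 (15.4%), and by read count only in epithelium replicate 2 (21.8%). The last 40% of the gene body was free of islands in every library.

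Agk encodes acylglycerol kinase, a lipid kinase of mitochondria that is also part of the TIM22 import complex. It lies at chr6:40325172-40396762 on the plus strand. Epithelium had no island there, with the nearest 765 kb and 750 kb away from the gene. In fibers 6.62% and 6.86% of the window was covered, and the islands sat at the start, with lengths of 5.4 kb and 3.6 kb. Fiber replicate 2 had 1 further island of 2 kb in the body. These start islands were thin, at 23.0 and 24.4 reads per kb, denser than only 10.5% and 23.3% of the islands of their libraries. With an equal number of islands from each library, by density or by read count, Agk had no island in any library.

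The starts of Chmp4b, Wfs1 and Agk are shown because each lay wholly inside an island of both fiber replicates and of neither epithelium replicate. They come from RefSeq (GRCm38, 250 bases before to 50 after the start, CpGs in capitals). Chmp4b is at chr2:154656776-154657075 on the plus strand with 27 CpGs, Wfs1 at chr5:36988933-36989232 on the minus strand with 30, and Agk at chr6:40325228-40325527 on the plus strand with 19.
Chmp4b: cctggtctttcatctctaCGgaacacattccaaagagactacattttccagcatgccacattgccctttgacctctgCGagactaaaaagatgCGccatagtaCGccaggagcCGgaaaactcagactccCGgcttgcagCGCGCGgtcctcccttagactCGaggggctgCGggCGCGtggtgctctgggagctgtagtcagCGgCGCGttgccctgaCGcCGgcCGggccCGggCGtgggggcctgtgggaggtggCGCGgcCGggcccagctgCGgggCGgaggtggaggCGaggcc
Wfs1: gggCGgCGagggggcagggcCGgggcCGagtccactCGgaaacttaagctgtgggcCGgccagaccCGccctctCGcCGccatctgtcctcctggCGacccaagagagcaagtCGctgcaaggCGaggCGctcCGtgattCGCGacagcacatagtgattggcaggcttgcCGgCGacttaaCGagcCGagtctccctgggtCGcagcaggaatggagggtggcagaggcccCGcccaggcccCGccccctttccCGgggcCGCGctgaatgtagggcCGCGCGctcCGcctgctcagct
Agk: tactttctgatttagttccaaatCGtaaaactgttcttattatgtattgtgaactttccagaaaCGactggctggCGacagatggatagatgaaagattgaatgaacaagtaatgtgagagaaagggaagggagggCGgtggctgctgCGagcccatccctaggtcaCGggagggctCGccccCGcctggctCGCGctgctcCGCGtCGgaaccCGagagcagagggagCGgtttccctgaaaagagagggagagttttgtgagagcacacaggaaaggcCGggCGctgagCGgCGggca

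A start of a coding transcript lay in an island of both fiber libraries for 5 of the 9 genes, Chmp4b, Agk, Sipa1l3, Wfs1 and Trpm3, against 35.2% of all genes. In both epithelium libraries this held for Trpm3 alone, 1 of 9, against 8.88%. Over all RefSeq promoters, the start lay in an island of both fiber libraries for 55.4% of those with 20 or more CpGs, 24.6% of those with 4 to 19, and 5.44% of those with up to 3. For epithelium the same shares were 11.7%, 5.76% and 1.05%. The internal start of Trpm3, with 4 CpGs, was thus covered in both compartments although it was poorer in CpGs than the upstream starts without islands. The GC box GGGCGG, searched on both strands, was found in 6 of the 12 sequences of the 8 genes with an entry and in 35.7% of all promoters. The TATA box TATAAA was in none of the 12 and in 13.6% of all promoters. The palindromic E box CACGTG was in those of Sipa1l3 and Unc45b and in 7.15% of all promoters, and TGCTGA, the core bound by Maf proteins, was in that of Tmem114 and in 19.5%. Lemd2 had no entry.

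Unc45b encodes a chaperone of myosin that works with Hsp90 and is best known from muscle. The gene lies at chr11:82910550-82943403 on the plus strand. Its window held 1 island of 4.2 kb in epithelium replicate 1, none in epithelium replicate 2, 1 of 6 kb in fiber replicate 1 and 1 of 6.4 kb in fiber replicate 2. This covered 9.80% and 0% of the window in epithelium, and 14.0% and 14.9% in fibers. The compartments did not overlap, but the epithelium replicates differed (SD 6.93 points, n = 2) by more than epithelium replicate 1 lay from the fibers. All 3 islands lay in the middle of the gene, between 50% and 80% of its length, and no island lay within 9750 bp of the starts of its main transcripts. The fiber islands were dense, at 33.8 and 34.5 reads per kb, above 89.2% and 89.3% of the islands of their libraries. They also overlapped Unc45bos, a transcript of the opposite strand, and the start of the short transcript Unc45b-203, and which of these the reads belong to cannot be told apart.

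Tmem114 encodes a membrane glycoprotein related to claudins. It lies at chr16:8409275-8425136 on the minus strand. In epithelium the nearest islands were 97.5 kb and 87.9 kb from the gene. Each fiber replicate had a single island, of 2.4 kb and 2.8 kb, which covered 9.28% and 10.8% of the window. Both fiber islands lay in an intron in the middle of the gene, 6336 bp and 7336 bp from the start. With an equal number of islands from each library, by density the one of fiber replicate 1 was left, and by read count none.

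Gcnt2 encodes the enzyme that makes the branched I antigen, with alternative first exons that give different tissues their own form. The gene is 101 kb long (chr13:40859754-40960892, plus strand). No island was called in its window in any library, at none of its 6 annotated start positions. The nearest island was 127 kb and 125 kb from the gene in epithelium, and 37.5 kb and 38.9 kb in fibers. Among the 3973 genes within 0.5 to 2 times its length, 22.2% likewise had no island. Of the 75 nt stretches in its window, 4.61% occur more than once in the assembly, the highest share of the 9 genes, in which it ranged from 0.124% for Wfs1. An absent island says only that the signal did not pass the threshold of the caller.

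**Figure D4:**
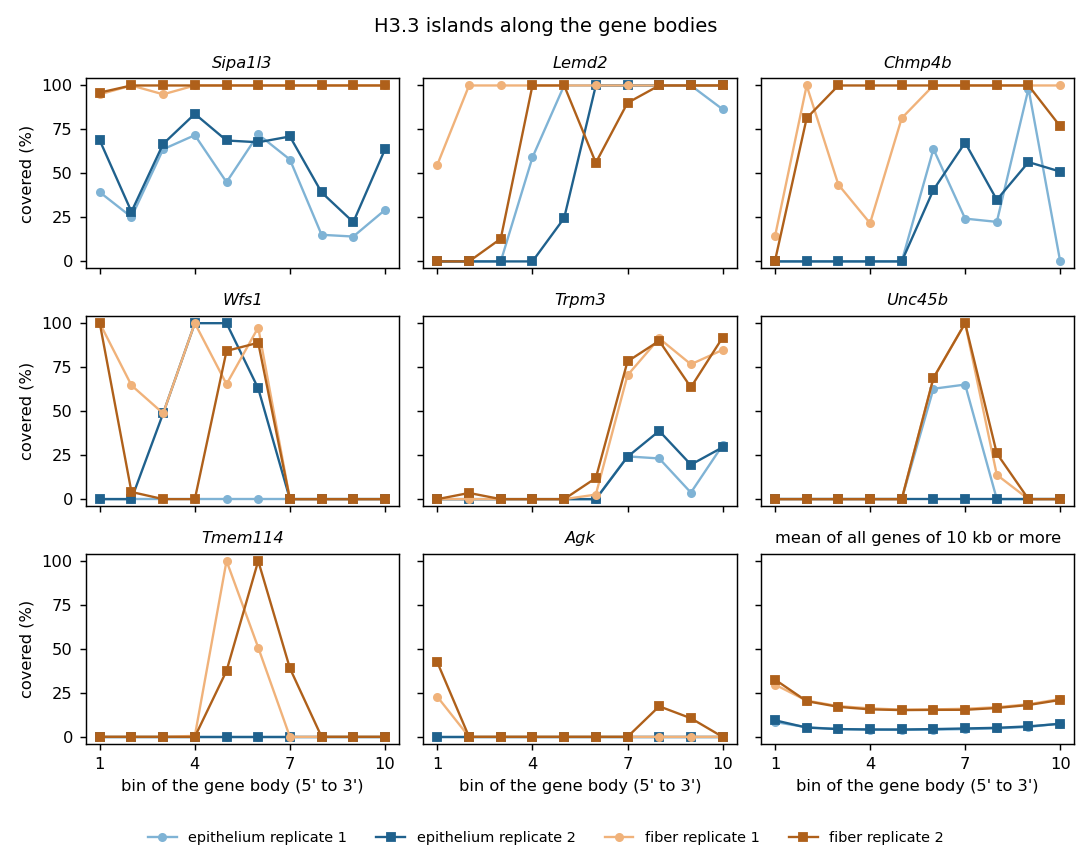
Share (in %) of each of 10 equal bins of the gene body, numbered from 5′ to 3′, that lay under islands, for the 8 genes with islands and, in the last panel, the mean of all genes of 10 kb or more, with 1 line per library. Trpm3 is covered almost only from bin 6 on, Unc45b and Tmem114 only in the middle, and Sipa1l3 throughout. In fibers, Agk is covered mainly at bin 1, and Wfs1 at bin 1 and in further bins up to bin 6.

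Along the gene body the islands lay in different places. Over all genes of 10 kb or more, mean coverage was highest in bin 1, at 8.43% and 9.41% in epithelium and 29.7% and 32.5% in fibers, and was 15.5% and 15.2% in bin 5 in fibers. In fibers, Agk and Wfs1 had their coverage maximum in bin 1 (in replicate 1 of Wfs1 together with bin 4), while Trpm3, Unc45b and Tmem114 had no coverage in it.

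Genes of related function were taken as 9 lists, 1 for each gene, with 89 genes in all. Of these, 61 were covered more in both fiber libraries and none showed the opposite order, with a median difference of 16.6 points. The count of each list is read against 45.0% of all genes, or 52.1% of those of 10 kb or more. In the list of ESCRT-III and its partners, 8 of 14 genes were higher in fibers, a share near that of all genes, with a median of 17.4 points. Vps4a, the ATPase that takes the filament apart, had the largest difference, 37.3 points, below that of Chmp4b, and Chmp4c had no island.

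For the endoplasmic reticulum genes beside Wfs1, 12 of 13 were higher, with a median of 23.3 points. The chaperone Hsp90b1 had the largest difference, with 0% in both epithelium libraries and 78.3% and 71.1% in fibers, and the stress sensor kinase Eif2ak3 differed by 2.69 points with overlap. The lipid kinase and TIM22 genes beside Agk showed 8 of 9 higher, from 6.48 points for Dgke to 45.0 points for the ceramide kinase Cerk. Among the genes of the Rap pathway and of the Sipa1l3 family, 9 of 10 were higher, with a median of 31.2 points. Epha2, a receptor kinase that is itself a cataract gene, showed 66.5 points, and Rap1gap2 0.075 points.

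The lamina and LEM domain genes beside Lemd2 were higher in 9 of 14, with a median of 14.9 points, the largest for Ankle2 with 30.3 points, while Emd had no island. Of the chaperone and myosin genes beside Unc45b, 6 of 8 were higher. Hsp90aa1 had 60.8 points and Hsp90ab1, which was already covered to 82.6% and 92.9% in epithelium, 6.68 points. In the list of GCNT enzymes and I antigen synthesis, 4 of 7 were higher, again near the share of all genes, with 37.9 points for the galactosyltransferase B4galt1, and Gcnt1 and Gcnt3, tied for the smallest difference, had no island, like Gcnt2.

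Of the claudin-like relatives of Tmem114, 3 of 7 were higher, against 45.0% of all genes, with 64.01 points for the myelin protein Pmp22, and Emp2 had no island. In the TRPM channels 2 of 7 were higher, fewer than among all genes, Trpm4 and, named after its values were seen, Trpm1, with a median of 2.14 points over the list. Trpm4 had the largest difference, 25.2 points, close to the 23.7 points of Trpm3, and Trpm5 had −6.20 points with overlapping values.

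**Figure D5:**
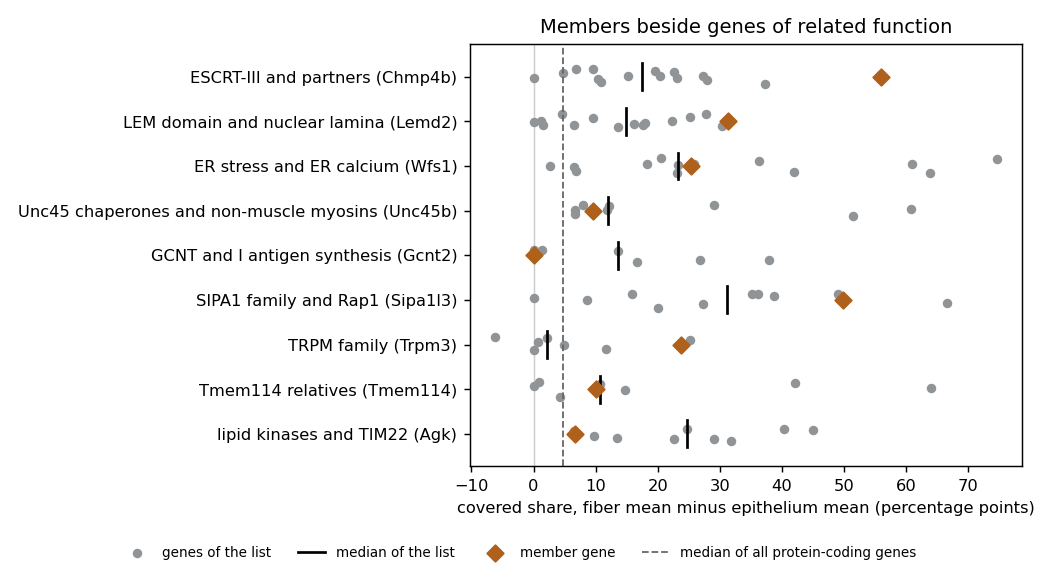
Difference in covered share between the fiber mean and the epithelium mean, in percentage points, for the genes of each list (grey points), their median (black bar) and the member gene (diamond), with the median of all protein-coding genes, 4.72 points, as a dashed line. Chmp4b, with 56.0 points, lies beyond every gene of its list, and Gcnt2 lies at 0.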

How the data were processed

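The 4 H3.3 ChIP-seq libraries, 2 of newborn lens epithelium and 2 of lens fibers, were used. The authors aligned 75 nt single-end reads to mm10 (BWA, aln and samse with defaults) and ran SICER2 on each library (window 200 bp, gap 600 bp, false discovery rate 0.01). The deposited lists give each island with its count of reads, without normalization. Whether the pooled input served in calling, and whether duplicate reads were removed, is not given in the sources used here. Sequencing depth is unknown, and the number of libraries limits the precision.

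Ends of islands were read as inclusive, and positions count from 1. Covered share is the part of a window under islands, and density is the reads of all islands touching the window divided by their full length. No count model was run, since places below the calling threshold have no value. Groups were compared by the exact permutation test over the 4 libraries. The genes named were all 9 members, in each list of related genes the one with the largest and the one with the smallest difference, neighbours under an island of a member, and Mir204. Members and lists were chosen with earlier results of these data known. The coverage step was tested on simulated data and recovered all 500 windows. Scripts used matplotlib 3.10.9, numba 0.67.0, scipy 1.17.1, numpy 2.4.6 and Python 3.11.15. Alternatives changed the libraries, the window, the island threshold, the overlap, joining, the gene model, the scaling and the pairing. Neither the pooled input nor the bisulfite libraries were analysed here.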

Additional observations from a re-analysis of the deposited data

How the results depend on the processing

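All genes with a higher covered share in both fiber libraries made up 45.0% with all islands. The number of the 9 genes with this order stayed at 8 without any 1 library (47.7% to 54.7% of all genes) and with 10 kb on each side (48.1%). It was also 8 with islands joined within 1 kb (44.7%) and with bodies from protein-coding transcripts (44.8%). With islands that had at least 50% of their length in the window it was again 8 (41.1%). It was 7 for gene bodies alone (38.4%). It was 5 with islands at or above the median density of their library (30.9% of all genes), 5 with an equal number of islands (10389) from each library by density (15.6%), 4 with that number by read count (21.4%), 2 with covered length per Mb of islands (21.6%) and 4 with percentiles within the library (22.0%). Agk and Tmem114, without an island in epithelium, were counted per Mb of islands and in percentiles because such scaling could not change their order. Agk, Wfs1, Tmem114 and Gcnt2 did not show the order under any of the 3 thresholds, nor did Lemd2 by read count. The number with an island in both fiber libraries was 5 under each threshold, against 35.4%, 25.2% and 28.3% of all genes. The median difference was 9.57, 7.70 and 5.63 points under the thresholds in the same order, where it was 0 over all genes, and it ranged from 14.49 points (without epithelium replicate 1) to 25.2 points (without epithelium replicate 2) when 1 library was left out. The difference changed sign per Mb of islands for Sipa1l3 (−1050 bp), Lemd2 (−152 bp), Trpm3 (−183 bp), Unc45b (−12.4 bp) and Wfs1 (−7.84 bp). For Sipa1l3 and Lemd2 this sign was fixed in advance, since even full coverage in fibers would not have changed it. For Trpm3, Unc45b and Wfs1 the values of the compartments overlapped on this scale. The sign also changed in percentiles for Lemd2 (−2.03) and Trpm3 (−3.80), and by read count for Wfs1 (−10.9 points). The difference in density of Trpm3 ranged from −0.124 reads per kb (without epithelium replicate 2) to 1.61 reads per kb (without epithelium replicate 1). The cause was not tested. With the replicate block, same-numbered libraries were compared within a pair. Then 8 of the 9 genes were higher in both pairs, against 47% of all genes. The median stayed at 23.7 points, with 0.5 as the smallest p that 2 pairs allow. The numbers are not known to pair the libraries: deviations of replicate 1 from the group means correlated by 0.00635 over 14147 genes. The block has no bearing on islands counted within 1 compartment.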
